A study of Homo sapiens with 9 samples.

Results

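The AP-1 transcription factors were followed in CAL27 cells, an established tongue squamous carcinoma line. The group comprised 10 genes picked by name, FOS, FOSB, FOSL1, FOSL2, JUN, JUNB, JUND, ATF3, BATF3 and MAFF, out of 78894 gene identifiers, and each of the 10 names matched a single identifier. The study deals with a functional enhancer in head and neck cancer and measured polyA RNA by strand-specific sequencing in 9 samples: 3 of Control, and 2 each of the knockout groups A2ko, A8ko and C9ko, all CAL27 in DMEM with 10% serum. The labels call these groups knockouts of a CRISPR-edited line, without naming the edited sequence or saying whether a group is a clone or a pool, so no edited gene could be checked.

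The A2ko files were copies of each other, as were the A8ko files, and either pair was used as 1 library. Both files of each pair carry the column name of the second library. Counted this way the series had 3 Control libraries, 1 of A2ko, 1 of A8ko and 2 of C9ko, 7 in all. Values were TPM, a length-scaled share of the library that allows levels to be compared between genes. TPM keeps no read depth, so the precision of low values is unknown. Nothing in the labels says that samples came from separate cultures, so p-values measure only the spread between these libraries. Of 6 squamous epithelial markers, all 6 were detected in every library (KRT5 from 3082 to 9147 TPM). Of 6 fibroblast markers 3 passed the filter on low values, with the 6 summing to 10.8 to 12.2 TPM in Control, 17.7 in A2ko, 7.36 in A8ko and 11.02 to 11.83 in C9ko, and COL3A1 was listed at 0 throughout. Of 5 leukocyte markers only CD68 and CD14 passed, with a sum of 42.3 to 50.4 TPM in Control, 59.3 in A2ko, 82.8 in A8ko and 65.4 to 66.8 in C9ko, while PTPRC, CD3E and CD79A were under 1 TPM in every library. Of 3 endothelial markers only CDH5 passed, at 3.21 to 4.27 TPM in Control, 12.6 in A2ko, 8.15 in A8ko and 21.9 to 29.9 in C9ko, with PECAM1 and VWF under 1 TPM in every library. The part of these markers in the results was not tested. Mitochondrial transcripts took 23.1% to 26.9% of TPM in Control, 25.2% in A2ko, 20.6% in A8ko and 17.9% to 20.2% in C9ko. TPM rescaled without them left every called AP-1 gene below in the same direction. Genes with at least 1 TPM numbered 15658 to 15832 in Control, 16716 in A2ko, 15556 in A8ko and 15722 to 15954 in C9ko. The A2ko library thus had the most, and the part of this in its results was not tested.

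AP-1 is a dimer of basic leucine zipper (bZIP) proteins. FOS family proteins do not pair with each other and bind DNA as partners of a JUN protein, whereas JUN proteins can also pair among themselves. The dimers bind the TPA response element (TRE), and some, above all those with ATF proteins, the cyclic AMP response element (CRE). FOS, FOSB, JUN, JUNB and ATF3 are immediate early genes, induced within minutes of growth factor or stress signals through the ERK and JNK kinases. In keratinocytes AP-1 acts on genes of terminal differentiation as well as on proteases and cytokines, and FOSL1 (FRA1) is known from invasive squamous carcinoma.

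The shares of FOS and FOSL1 in the FOS family differed from Control in each knockout, though not in the same direction. FOS made up 52.6% ± 1.304 of FOS family TPM in Control (SD, n = 3) and FOSL1 27.0% ± 1.01 (SD, n = 3). In A8ko FOS was 15.7% and FOSL1 68.2% of the family, and in the C9ko libraries FOS was 9.38% and 9.47% and FOSL1 66.9% and 65.97%. A2ko went the other way, with FOS at 71.5% and FOSL1 at 11.4%. FOSL1 TPM per FOS TPM was 0.514 ± 0.0322 in Control (SD, n = 3). The A2ko library had a ratio of 0.159 and A8ko one of 4.33, and the C9ko libraries had 7.13 and 6.97. The summed TPM of the 4 FOS family genes was 275.9 ± 0.695 in Control (SD, n = 3) and 272.7 and 277.9 in C9ko, and it was 341.4 in A2ko and 375.8 in A8ko. In C9ko the family sum thus stayed near that of Control while its parts changed. FOS was at 0.179, FOSB at 0.266, FOSL1 at 2.45 and FOSL2 at 1.59 times the Control mean.

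**Figure D1:**
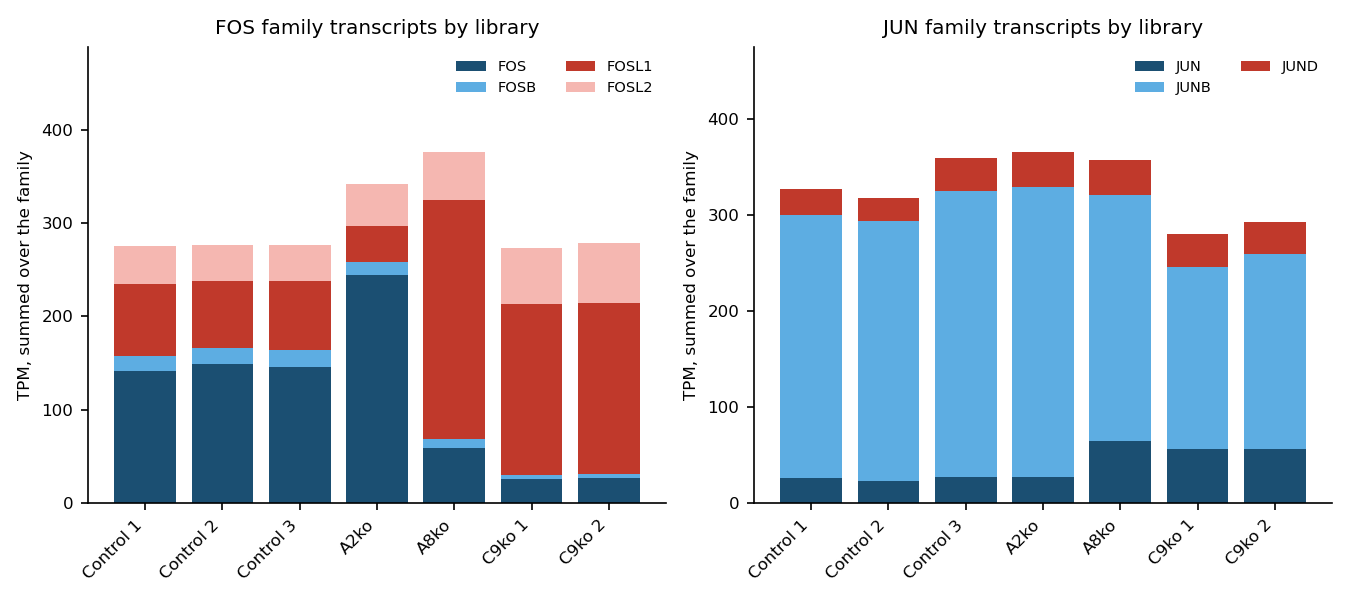
Summed TPM of the FOS family (left) and JUN family (right) in each of the 7 distinct libraries, with the genes stacked from 0. FOS fills 51.2% to 53.8% of the FOS family bar in Control, 71.5% in A2ko and 9.38% to 15.7% in A8ko and C9ko. FOSL1 is the largest part of that bar in A8ko and C9ko, and JUNB is the largest part of every JUN family bar.

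Differences are given on the log2(TPM + 1) scale, which understates changes of weakly expressed genes. C9ko was tested against Control with limma in 17100 genes with at least 1 TPM in at least 2 distinct libraries, and called at a Benjamini-Hochberg adjusted p under 0.05. All 10 AP-1 genes passed that filter. Of the 10, 8 were called in C9ko, 5 higher and 3 lower, against a background of 29.5% of tested genes called, 22% higher and 7.42% lower. Of all calls in C9ko, 74.8% were higher. Scaling by the median of ratios, which moved the median gene from 0.11 to 0.00289, made this share 56.3%. A2ko and A8ko have 1 library each and get no p-value against Control. There a gene was counted if its value was beyond all Control libraries and its log2 difference was 1 or more. In A2ko 5.07% of tested genes met this, 3.54% higher and 1.53% lower, and in A8ko 4.73%, 2.05% higher and 2.68% lower. The 3 knockouts share their Control libraries, so their differences from Control are not independent of each other. Knockouts were also set against each other directly in the same limma fit, where the lone A2ko and A8ko libraries are assumed to vary like those of Control and C9ko. A8ko minus A2ko sets 1 library against 1, so its SE and p rest wholly on that assumption. By this test 24.3% of tested genes differed between A8ko and A2ko (11.1% higher and 13.1% lower in A8ko), 29.3% between C9ko and A2ko (15.9% higher and 13.4% lower in C9ko) and 9.61% between C9ko and A8ko (7.43% higher and 2.18% lower in C9ko).

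FOS (ENSG00000170345, chromosome 14, 75278774 to 75282230, plus strand, protein coding), the founding partner of JUN, was at 141.0, 148.8 and 145.8 TPM in the Control libraries. A2ko stood at 244.2, A8ko at 59.1 and the C9ko libraries at 25.6 and 26.3. A2ko lay above and the other knockouts below every Control library. The share of all tested genes with such an order was not counted, here or for FOSL1 and MAFF below. In C9ko FOS fell to 0.179 times the Control mean, a log2 difference of -2.44 (SE 0.06, limma adjusted p 5.70e-06). It differed by 0.75 in A2ko and -1.28 in A8ko. C9ko lay below A8ko by -1.16 (SE 0.08, limma adjusted p 0.000715) and A8ko below A2ko by -2.03 (SE 0.09, limma adjusted p 8.02e-05).

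FOSB (ENSG00000125740, chromosome 19, 45467995 to 45475179), a paralog of FOS with the same partners, was at 16.1, 17.3 and 17.9 TPM in Control. A2ko stood at 13.7, A8ko at 8.91 and the C9ko libraries at 4.74 and 4.36. All 4 knockout libraries lay below all 3 Control libraries, as they did for 4.61% of tested genes. It fell in C9ko by 1.71 on the log2 scale (SE 0.08, limma adjusted p 3.49e-05), and differed by -0.30 in A2ko and -0.87 in A8ko. FOSB overlaps ERCC1 on the other strand, and whether counting used strand is not stated.

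FOSL1 (ENSG00000175592, chromosome 11, 65892049 to 65900573), a FOS relative without the strong transactivation domain of FOS, was at 77.3, 72.1 and 74.3 TPM in Control. A2ko stood at 38.9, A8ko at 256.1 and the C9ko libraries at 182.4 and 183.4. From highest to lowest the order was A8ko, C9ko, Control, A2ko. It rose in C9ko to 2.45 times the Control mean, by 1.28 (SE 0.06, limma adjusted p 3.33e-05). The difference was 1.77 in A8ko, or 3.43 times the Control mean, and -0.92 in A2ko. A8ko was above A2ko by 2.69 (SE 0.09, limma adjusted p 4.35e-05). C9ko was below A8ko by -0.48 (limma adjusted p 0.0148), and without the first C9ko library that adjusted p was 0.0558.

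FOSL2 (ENSG00000075426, chromosome 2, 28392448 to 28417312), the other FOS-related antigen, was at 40.6, 38.1 and 38.1 TPM in Control. A2ko stood at 44.5, A8ko at 51.6 and the C9ko libraries at 59.9 and 63.9. Every knockout library was above every Control library, as in 17% of tested genes. The rise in C9ko was 0.66 (SE 0.07, limma adjusted p 0.000611). C9ko minus A8ko was not called (0.26, 95% interval 0.04 to 0.47 before adjustment, limma adjusted p 0.140), and A8ko minus A2ko was not either (0.21, interval -0.04 to 0.45, limma adjusted p 0.190). FOSL2 overlaps AC104695.3 on its own strand.

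**Figure D2:**
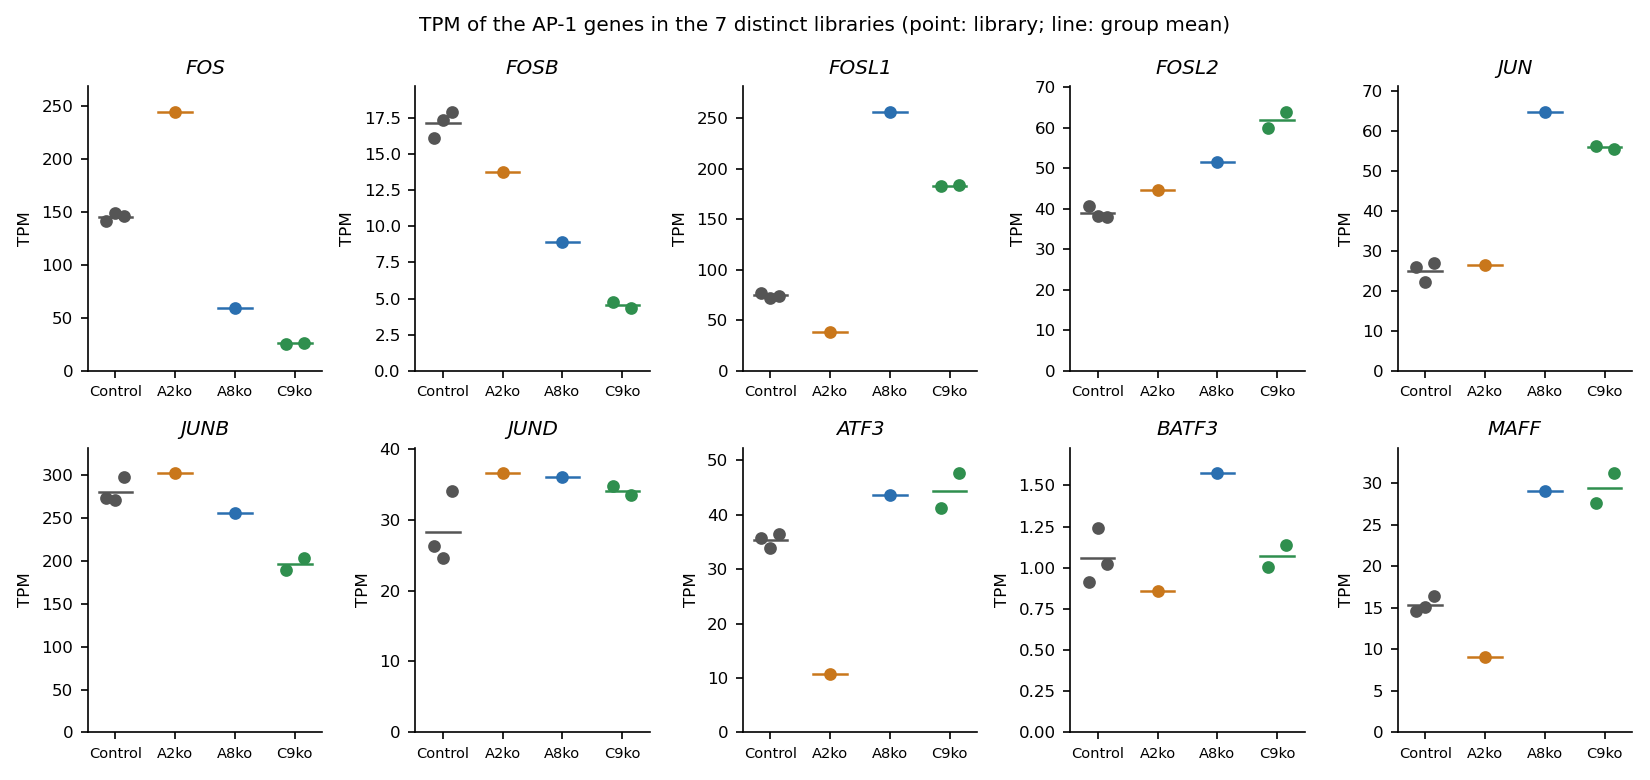
TPM of the 10 AP-1 genes, with 1 panel a gene, 1 point a distinct library and a line at each group mean. Groups are Control (3 libraries), A2ko (1), A8ko (1) and C9ko (2), and the y axes start at 0 and differ between panels. FOS is highest in A2ko and lowest in C9ko, FOSL1 is highest in A8ko and lowest in A2ko, and the JUND and BATF3 points lie close to the Control range.

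Among the JUN genes, JUN rose with FOSL1 in C9ko and JUNB fell with FOS. JUN (ENSG00000177606, chromosome 1, 58780788 to 58784327), the strongest activator of the family, was at 26.1, 22.4 and 27.0 TPM in Control. A2ko stood at 26.4, A8ko at 64.9 and the C9ko libraries at 56.3 and 55.7. A2ko lay inside the Control range, and A8ko and C9ko lay well above it. The rise in C9ko was 1.13 (SE 0.09, limma adjusted p 0.000229) and the difference in A8ko 1.34. A8ko exceeded A2ko by 1.26 (limma adjusted p 0.00163). C9ko minus A8ko was -0.21 (95% interval -0.50 to 0.08, limma adjusted p 0.360).

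JUNB (ENSG00000171223, chromosome 19, 12791496 to 12793315), which can restrain JUN as well as activate, was the most abundant of the 10 in Control, at 273.9, 270.6 and 298.0 TPM. A2ko held 302.0 TPM, A8ko 255.5, and the C9ko libraries 189.1 and 203.1. In C9ko it fell to 0.698 times the Control mean, a log2 difference of -0.52 (SE 0.07, limma adjusted p 0.00236). A2ko and A8ko lay just above and just below the Control range, at 0.11 and -0.13. JUNB overlaps HOOK2 on the other strand. JUN TPM per JUNB TPM was 0.0895 ± 0.00644 in Control (SD, n = 3). The ratio was 0.0875 for A2ko, 0.254 for A8ko, and 0.298 and 0.274 for the C9ko libraries.

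JUND (ENSG00000130522, chromosome 19, 18279760 to 18281622), the steadily expressed member of the family, was at 26.3, 24.6 and 34.1 TPM in Control. A2ko stood at 36.5, A8ko at 35.9 and the C9ko libraries at 34.7 and 33.4. The C9ko libraries straddled the highest Control library, and the difference of 0.27 was not called (SE 0.13, limma adjusted p 0.171). Without the third Control library it was 0.41 (limma adjusted p 0.0186), so that library decides the call. JUND was not called between any pair of knockouts, and the interval for A8ko minus A2ko ran from -0.52 to 0.47.

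**Figure D3:**
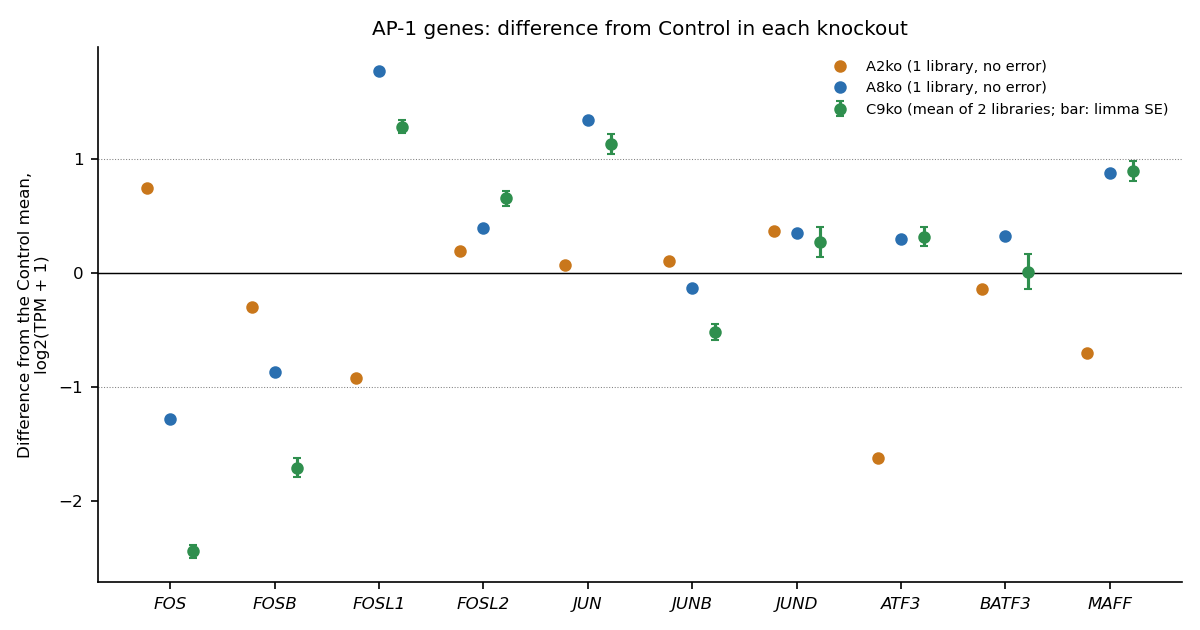
Difference from the Control mean in log2(TPM + 1) for each AP-1 gene in A2ko and A8ko (1 library each, no error) and C9ko (mean of 2 libraries, bar: limma SE). FOS and FOSL1 stand on opposite sides of 0 in A2ko from those in A8ko and C9ko. ATF3 has its largest difference in A2ko, at -1.62, and dotted lines mark 1 log2 unit.

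ATF3, BATF3 and MAFF are the bZIP genes of the group outside the FOS and JUN families. ATF3 (ENSG00000162772, chromosome 1, 212565334 to 212620777), a stress-induced factor that binds CRE sites and pairs with JUN proteins, was at 35.7, 33.8 and 36.4 TPM in Control. A2ko stood at 10.8, A8ko at 43.7 and the C9ko libraries at 41.2 and 47.6. A2ko was far below Control, at 0.306 times its mean and a log2 difference of -1.62. ATF3 was the only AP-1 gene of the 10 counted in A2ko, where 5.07% of all tested genes were. The rise of 0.32 in C9ko (SE 0.08, limma adjusted p 0.0277) is weak: it kept an adjusted p under 0.05 in 6 of 14 alternatives, and not when any single Control library or the second C9ko library was left out (0.0586 to 0.156). ATF3 was above the single A2ko library by 1.92 in the single A8ko library (SE 0.13, limma adjusted p 0.000266) and by 1.94 in C9ko (SE 0.11, limma adjusted p 0.000116).

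MAFF (ENSG00000185022, chromosome 22, 38200767 to 38216511), a small MAF protein that lacks a transactivation domain and pairs with NRF2 and other bZIP proteins, was at 14.6, 15.1 and 16.4 TPM in Control. A2ko stood at 9.08, A8ko at 29.03 and the C9ko libraries at 27.6 and 31.2. A2ko lay below every Control library and the other 3 knockout libraries above. The rise in C9ko was 0.89 (SE 0.09, limma adjusted p 0.000510), or 1.91 times the Control mean. C9ko minus A8ko was not called for MAFF (0.01, 95% interval -0.26 to 0.29, limma adjusted p 0.962). MAFF overlaps PLA2G6 on the other strand. BATF3 (ENSG00000123685, chromosome 1, 212686418 to 212699985), known as a factor of dendritic cells, was near the filter at 0.912, 1.24 and 1.02 TPM in Control. A2ko stood at 0.862, A8ko at 1.57 and the C9ko libraries at 1.01 and 1.14. BATF3 was not called in C9ko (0.01, SE 0.15, limma adjusted p 0.958).

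In A8ko, 3 AP-1 genes were counted beyond 1 log2 unit, FOSL1 and JUN higher and FOS lower, against 4.73% of all tested genes. In A2ko 1 of the 10 was counted, ATF3, lower, a count near the share of all tested genes (5.07%). When each knockout group counted as 1 value against the 3 Control libraries, limma called 0 of the 10 genes, with 4 at an unadjusted p under 0.05 (FOSB, FOSL2, JUN and JUND) against 16% of all tested genes, and 1.03% of all tested genes were called, 0.509% higher and 0.52% lower. Without A2ko the same comparison called 11.7% of tested genes, 8.08% higher and 3.57% lower, and 7 of the 10: FOS, FOSB, FOSL1, FOSL2, JUN, MAFF and, barely, ATF3 (adjusted p 0.0498). Each of the 7 was called in 2 of 13 alternatives to the comparison of all knockouts, and not without A8ko or without C9ko. Between knockouts, under the same assumption, 6 of the 10 were called for A8ko against A2ko (24.3% of tested genes) and 8 for C9ko against A2ko (29.3%). For C9ko against A8ko 3 were called (9.61% of tested genes), FOS, FOSB and FOSL1, all lower in C9ko.

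Promoters of some of the genes that moved are shown to compare their AP-1 and CRE letters. FOSL1 and BATF3 have no entry in the promoter table. The sequences below are the 250 bases before the RefSeq start, on GRCh38.p14, which is the assembly behind the hg38 build named in the submitters' notes. They were picked, after values and sequences were seen, because FOS and FOSB fell, and JUN and MAFF rose, in C9ko, and because SPRR1A and CXCL8 are known AP-1 targets that moved in opposite directions there, by -1.32 for SPRR1A and 1.70 for CXCL8 in log2 units. Capitals mark every match, in either strand, to the TRE (TGACTCA or TGAGTCA), the CRE (TGACGTCA), a CRE with any base in the place of its inner G or C (TGACNTCA or TGANGTCA), the short CRE core (TGACGT or ACGTCA) or the CArG box bound by SRF. FOS is chr14:75278578-75278827 and FOSB chr19:45467746-45467995, both on the plus strand. JUN is chr1:58784048-58784297 on the minus strand, and MAFF chr22:38201744-38201993, SPRR1A chr1:152983831-152984080 and CXCL8 chr4:73740319-73740568 are on the plus strand.
FOS: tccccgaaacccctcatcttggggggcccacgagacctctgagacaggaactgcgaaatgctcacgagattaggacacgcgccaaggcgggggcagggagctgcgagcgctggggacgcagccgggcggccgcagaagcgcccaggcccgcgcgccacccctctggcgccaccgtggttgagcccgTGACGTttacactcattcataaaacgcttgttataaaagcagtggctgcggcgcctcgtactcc
FOSB: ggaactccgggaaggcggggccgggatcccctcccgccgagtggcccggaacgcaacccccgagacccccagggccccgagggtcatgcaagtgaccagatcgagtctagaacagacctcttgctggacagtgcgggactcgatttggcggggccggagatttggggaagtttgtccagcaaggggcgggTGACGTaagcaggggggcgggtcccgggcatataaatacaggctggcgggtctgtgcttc
JUN: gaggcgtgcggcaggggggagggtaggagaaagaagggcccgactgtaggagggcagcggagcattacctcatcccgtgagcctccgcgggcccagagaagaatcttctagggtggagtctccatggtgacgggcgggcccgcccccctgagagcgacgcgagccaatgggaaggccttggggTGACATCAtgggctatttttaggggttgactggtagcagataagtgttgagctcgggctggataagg
MAFF: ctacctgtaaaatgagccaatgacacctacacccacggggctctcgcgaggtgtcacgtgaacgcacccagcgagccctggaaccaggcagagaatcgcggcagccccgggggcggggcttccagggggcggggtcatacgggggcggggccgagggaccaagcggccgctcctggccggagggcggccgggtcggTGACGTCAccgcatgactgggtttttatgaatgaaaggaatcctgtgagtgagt
SPRR1A: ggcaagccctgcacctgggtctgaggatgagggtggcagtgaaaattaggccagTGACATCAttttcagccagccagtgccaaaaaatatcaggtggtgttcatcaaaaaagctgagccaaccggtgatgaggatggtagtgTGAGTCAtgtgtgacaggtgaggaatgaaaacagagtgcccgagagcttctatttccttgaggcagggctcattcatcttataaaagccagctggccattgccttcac
CXCL8: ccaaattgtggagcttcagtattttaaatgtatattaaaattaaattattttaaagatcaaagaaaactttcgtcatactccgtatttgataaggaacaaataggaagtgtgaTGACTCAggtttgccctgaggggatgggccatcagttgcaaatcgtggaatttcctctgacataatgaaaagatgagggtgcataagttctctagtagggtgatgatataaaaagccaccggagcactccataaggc

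Promoters of 8 of the 10 AP-1 genes were in the table, as 10 promoters. The CRE core stood in those of FOS (64 to 59 bases before the start), FOSB (60 to 55), FOSL2, JUND and MAFF, and in 7.1% of all 35116 promoters. The full CRE was found in JUND and MAFF (54 to 47 bases before the start) and in 1.65% of all promoters, and it contains the core. JUN held the variant TGACATCA at 67 to 60 bases before the start, a form found with its relatives in 6.87% of all promoters, and ATF3 held one too. No TRE was found in the windows of the AP-1 genes, and 4.2% of all promoters held one. The CArG box was not found in these windows either, FOS and FOSB included, and 1.16% of all promoters held one. Bases outside the windows were not searched, so neither absence shows that a gene lacks the site. The genes with a CRE core included ones that fell (FOS, FOSB) and ones that rose (FOSL2, MAFF) in C9ko. These matches are descriptions of letters and not evidence of binding.

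Genes known as AP-1 targets in invasion and inflammation moved in both directions within C9ko and within A8ko. Of 20 such genes 18 were tested, and in C9ko 14 were higher and 3 lower, where 22% and 7.42% of all tested genes were, with a median log2 difference of 0.96 against 0.11 over all tested genes. The 3 lower genes were the collagenases and stromelysin of chromosome 11, MMP1 (-1.02), MMP10 (-2.28) and MMP13 (-2.74), while cytokines, urokinase and its receptor were higher. In A2ko the same proteases were the largest rises of the list, MMP1 at 4.19, MMP10 at 3.79 and MMP13 at 3.26, and in A8ko MMP13 was the largest fall. Of the 18, 9 were counted higher and 3 lower in A8ko, against 2.05% and 2.68% of all tested genes. For A2ko the counts were 6 higher and 0 lower, against 3.54% and 1.53%. The lists were drawn up with earlier results of these data known, so their counts are descriptions.

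MMP13, collagenase 3, was at 62.6, 59.8 and 63.6 TPM in Control. A2ko stood at 602.5, A8ko at 8.80 and the C9ko libraries at 8.54 and 8.30. Its libraries formed the same order as those of FOS, with A2ko highest, then Control, then A8ko and C9ko. C9ko minus A8ko was not called for MMP13 (-0.06, 95% interval -0.26 to 0.14, limma adjusted p 0.735), while FOS differed between them. IL6, a cytokine gene with a known AP-1 site, was at 12.1, 14.1 and 12.9 TPM in Control. A2ko stood at 17.6, A8ko at 130.5 and the C9ko libraries at 109.7 and 121.5. CSF2 (GM-CSF) rose in C9ko by 3.70 (limma adjusted p 2.17e-05) and was 4.64 above Control in A8ko and 0.26 in A2ko. Both had A8ko and C9ko far above A2ko and Control, the side on which FOSL1 and JUN were high. In A2ko the match with FOSL1 broke: FOSL1 was below every Control library, at 38.9 TPM, and IL6 was above every Control library. A link of either gene to FOSL1 or JUN was not tested.

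CCL2, a monocyte chemokine, followed neither pattern. It was at 128.6, 135.7 and 117.6 TPM in Control. A2ko stood at 298.2, A8ko at 37.4 and the C9ko libraries at 1432 and 1466, so A8ko and C9ko, on the same side of Control for FOS, FOSL1 and JUN, were on opposite sides here. C9ko exceeded A8ko by 5.24 (SE 0.10, limma adjusted p 9.17e-06). TIMP1, an inhibitor of the metalloproteinases, was the only gene of the list called in the comparison of all knockouts, at 1.38 (limma adjusted p 0.0152), with 10 of the 18 at an unadjusted p under 0.05 against 16% of all tested genes. TIMP1 overlaps SYN1, IL6 overlaps STEAP1B, and MMP1 and MMP10 overlap WTAPP1, on the other strand.

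AP-1 targets of keratinocyte differentiation were mostly lower. Of 11 such genes 9 were tested, and in C9ko 6 were lower and 1 higher, against 7.42% and 22% of all tested genes, with a median of -0.98. SPRR1B, a cornified envelope precursor, was at 220.8, 214.6 and 228.2 TPM in Control. A2ko stood at 3.83, A8ko at 19.8 and the C9ko libraries at 53.9 and 51.7. Every knockout library was far below Control, and SPRR1B fell in C9ko by 2.05 on the log2 scale (SE 0.06, limma adjusted p 8.30e-06). SPRR3 was the exception, at 0.430 to 0.978 TPM in Control, listed at 0 in A2ko, and at 3.43 in A8ko and 3.24 to 4.47 in C9ko, a rise of 1.53 in C9ko (limma adjusted p 0.00169). With all knockouts together KRT1, IVL and KRT10 were called, all lower. The 6 squamous markers did not all move the same way: in C9ko 3 were called lower and 1 higher, against 7.42% and 22% of all tested genes. Their summed TPM, which follows the most abundant of them, was 12937 to 13853 in Control, 3962 in A2ko, 5828 in A8ko and 7270 to 7468 in C9ko. The part of these markers in the result was not tested. SPRR genes are close paralogs, and the sources used here do not say how shared reads were assigned. Of the 8 promoters of this list in the table, 6 held a TRE: IVL, LORICRIN, SPRR1A (108 to 102 bases before the start), SPRR1B, SPRR2A and SPRR3. The TRE thus stood in genes of the list that fell and in the 1 that rose.

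**Figure D4:**
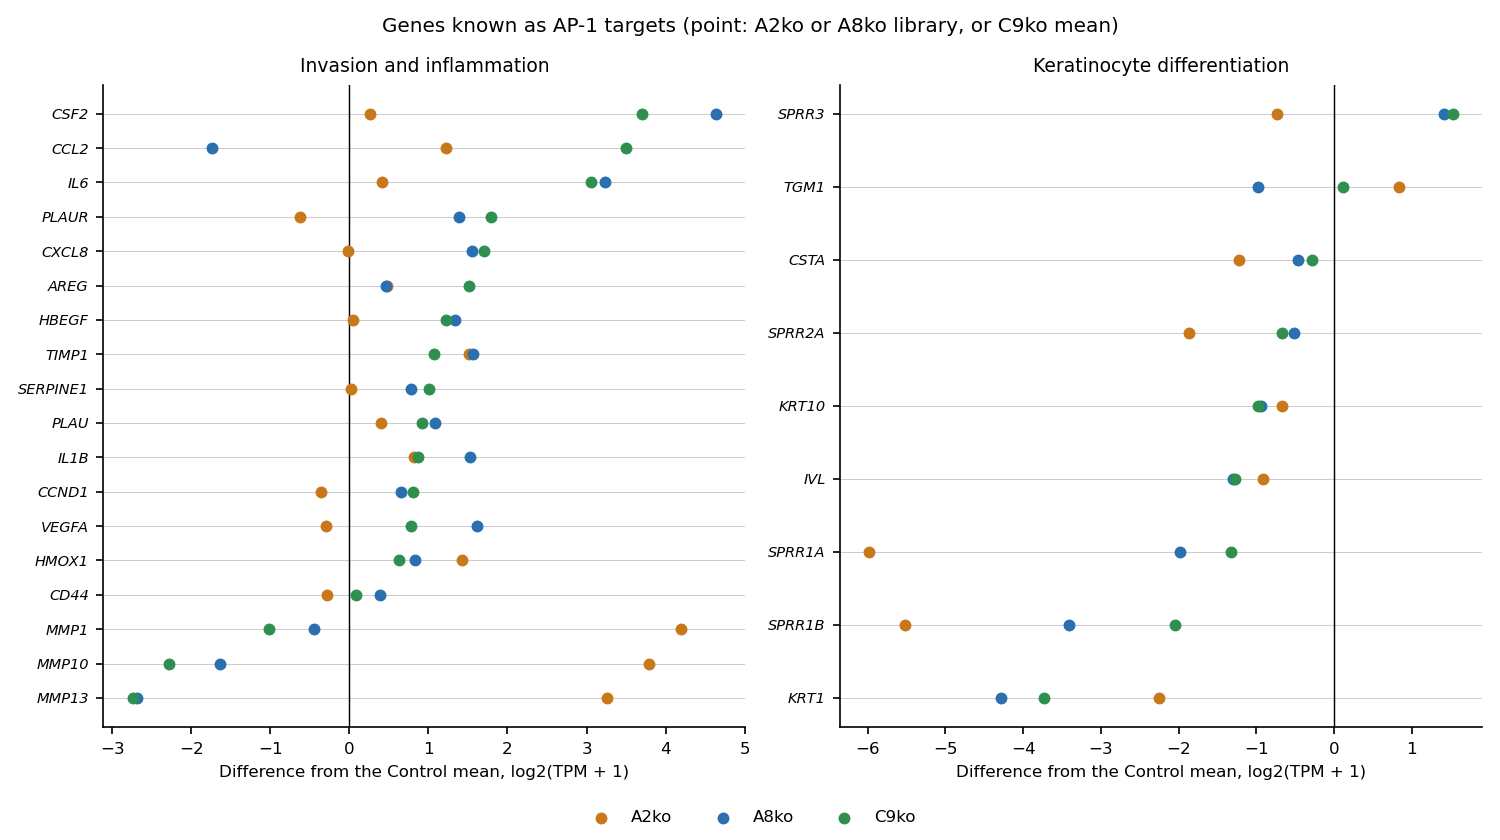
Difference from the Control mean in log2(TPM + 1) for the tested AP-1 targets of invasion and inflammation (left) and of keratinocyte differentiation (right), 1 point each for the A2ko library, the A8ko library and the C9ko mean. MMP1, MMP10 and MMP13 are above 3 in A2ko and below 0 in A8ko and C9ko, CSF2 and IL6 are above 3 in A8ko and C9ko, and SPRR3 is the gene on the right that rises in A8ko and C9ko.

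Signalling genes around AP-1 were read in the same libraries. Of 13 ERK feedback and output genes, 9 were higher and 2 lower in C9ko, against 22% and 7.42% of all tested genes. The median was 0.64. In A8ko 5 were counted higher and 0 lower, against 2.05% and 2.68% of all tested genes. In A2ko 0 were counted, where 5.07% of all tested genes were. DUSP4, a nuclear MAP kinase phosphatase, was at 3.50, 3.90 and 4.15 TPM in Control. A2ko stood at 2.82, A8ko at 21.6 and the C9ko libraries at 25.998 and 28.4, a rise of 2.54 in C9ko (SE 0.09, limma adjusted p 1.63e-05). ETV4 and ETV5, ETS factors induced by ERK, and SPRY4, a feedback inhibitor, rose in C9ko by 1.202, 1.19 and 1.19. DUSP1 and DUSP2, phosphatase genes of the immediate early class, were the 2 that fell in C9ko.

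The other immediate early genes did not move as a block. Of 25 such genes 23 were tested, and in C9ko 7 were lower and 3 higher, against 7.42% and 22% of all tested genes, with a median of -0.10. With scaling by the median of ratios, and also without mitochondrial genes, 11 were lower and 3 higher. EGR1, a zinc finger factor induced together with FOS, was at 392.1, 379.6 and 371.3 TPM in Control. A2ko stood at 223.3, A8ko at 407.8 and the C9ko libraries at 138.0 and 136.2. EGR1 was thus lower in A2ko, where FOS was highest, and above all Control libraries in A8ko, where FOS was low. ZFP36, which promotes decay of cytokine mRNAs, fell in C9ko by 1.13 (limma adjusted p 3.92e-05) and was 0.36 above Control in A2ko. FOS also fell in C9ko and was above Control in A2ko. CCN1, a matrix protein gene, rose in C9ko by 0.71 and was the largest rise of the list in A8ko, at 1.22. In A2ko the extremes were CCN2 at -1.92 and GEM at 1.26.

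Of 19 kinases and SRF-ELK factors upstream of AP-1, 18 were tested. In C9ko 7 were higher and 0 lower, against 22% and 7.42% of all tested genes, with a median of 0.15. In A2ko and A8ko 0 were counted, where 5.07% and 4.73% of all tested genes were. ELK3, an ETS partner of SRF, rose by 1.05 in C9ko (limma adjusted p 0.000117), and MAP3K1, a kinase upstream of JNK, rose by 0.65 (limma adjusted p 0.00269). After scaling by the median of ratios 6 were higher and 1 lower. SRF itself was at 42.6, 41.1 and 44.4 TPM in Control. A2ko stood at 23.1, A8ko at 50.2 and the C9ko libraries at 53.9 and 55.8. SRF was lowest in A2ko, and is named after its values were seen. Of 24 other bZIP genes 20 were tested, and 6 were higher and 3 lower in C9ko. The share higher is near that of all tested genes (22%, with 7.42% lower), and the median was 0.16. The largest rises were CREB5 (1.16), CEBPB (0.86), CEBPD (0.76) and CREB3 (0.70). With scaling by the median of ratios the lower count became 6. In A2ko BATF2, a relative of BATF3, reached 7.24 TPM, with a Control mean of 1.17 ± 0.166 (SD, n = 3).

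**Figure D5:**
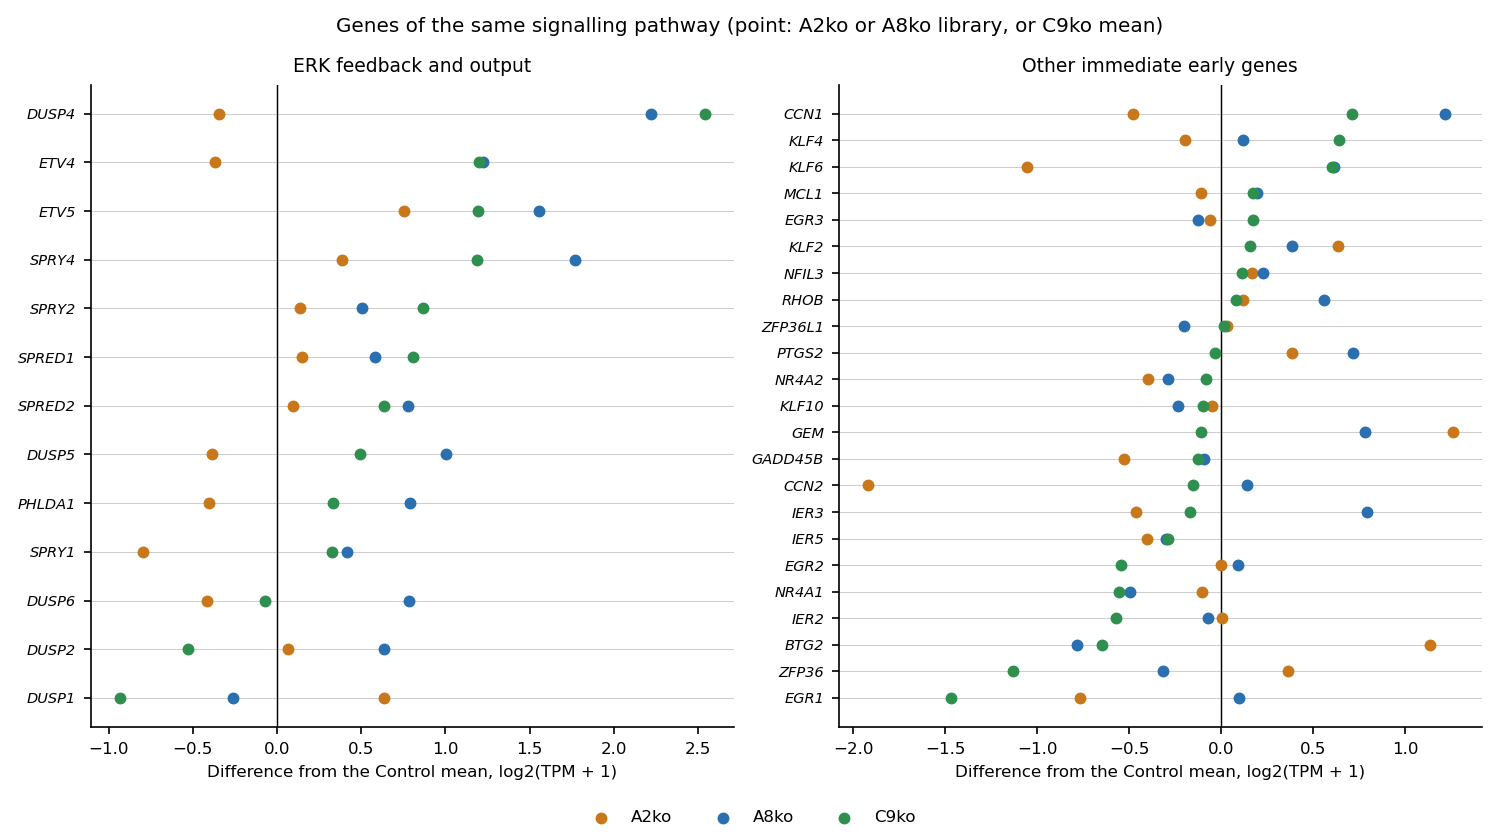
Difference from the Control mean in log2(TPM + 1) for ERK feedback and output genes (left) and the other tested immediate early genes (right), 1 point each for the A2ko library, the A8ko library and the C9ko mean. Most ERK feedback genes are above 0 in A8ko and C9ko, led by DUSP4 at 2.22 and 2.54, whereas EGR1 is lowest in C9ko at -1.47 and CCN2 in A2ko at -1.92.

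For each AP-1 gene whose group means spanned at least 1 log2 unit, the nearest tested genes were found by the root mean square distance between differences from Control over the 7 libraries, as a description. FOSL1 was closest to BBC3 (0.14) and CCL20 (0.16), JUN to DUBR and VEGFC (0.08 each), and MAFF to DUSP10 and MIR1915HG (0.10 each). ATF3 was closest to COL17A1 (0.07) and ZBED2 (0.16), and FOSB to PHGDH (0.14) and UGT1A6 (0.15). FOS had no close neighbour, with SYNGR1 at 0.29 and UCHL1 at 0.33. Within the group, JUN and MAFF were nearest to each other at 0.37, and FOS and FOSB were each other's nearest at 0.58.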

How the data were processed

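Per the submitters' processing notes the build was hg38. The deposited values are TPM per Ensembl gene, computed by the authors, and the aligner, quantifier, annotation and use of strand are not given in the sources used here. Per the labels' protocols, RNA was taken with TRIzol and libraries were made from 2 ug of total RNA by the dUTP method. Sequencing depth cannot be recovered from TPM.

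Symbols came from a table naming 61463 of the 78894 identifiers, positions from GENCODE 29 on GRCh38, and promoters from RefSeq (GRCh38.p14). Files of 1 group with identical values counted as 1 library. Values were taken as log2(TPM + 1), and a linear model over the 4 groups was fitted to 17100 genes with limma 3.58.1 under R 4.3.3 (lmFit, eBayes with trend). For all knockouts together, each knockout group gave 1 value. The fits were tested on simulated data, but settings and outcome are not given here, so the p-values gain no support from that.

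The members and lists were chosen with earlier results of these data known. Of each list, the text names at most 4 genes called in a comparison by size, plus the largest counted rise and fall in A2ko and in A8ko; others named were chosen after their values were seen, and 1 gene that the rule names is not reported here. The short CRE core was added as a motif after the sequences were seen. Alternatives varied the pseudocount, the filter, the scaling, the libraries left out and the fit.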

Additional observations from a re-analysis of the deposited data

Results flagged for a closer look

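Several AP-1 genes differed between knockouts in the limma fit of all 4 groups, in which the lone A2ko and A8ko libraries are assumed to vary like the others. A8ko and C9ko are both set against the same A2ko library here, so those differences share its error. A8ko minus A2ko was 2.69 for FOSL1, 1.92 for ATF3, 1.58 for MAFF and 1.26 for JUN, and -2.03 for FOS and -0.57 for FOSB, in log2 units. C9ko minus A2ko was 2.21 for FOSL1, 1.94 for ATF3, 1.59 for MAFF, 1.06 for JUN and 0.47 for FOSL2, and -3.19 for FOS, -1.41 for FOSB and -0.62 for JUNB. C9ko minus A8ko was -1.16 for FOS, -0.84 for FOSB and -0.48 for FOSL1. The labels do not say whether a knockout group is a clone, so the edit and the cells that carry it cannot be told apart.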

How the results depend on the processing

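Of the AP-1 genes called in C9ko, FOS, FOSB, FOSL1, FOSL2, JUN, JUNB and MAFF were called in all 14 alternatives. BATF3, near 0 in C9ko, changed sign with scaling by the median of ratios (-0.052) or without mitochondrial genes (-0.045), and ranged from -0.040 to 0.076 over the libraries left out. Genes called in C9ko, 5038 in all, numbered 3301 to 4174 with 1 library left out. Control and C9ko share replicate numbers, but the deviations of same-numbered libraries correlated at -0.05 and -0.01, so the numbers are not shown to pair them. With the replicate number as a block, 3248 genes were called, ATF3 was not (adjusted p 0.0974) and JUND was (0.0434). For all knockouts against Control, 176 genes were called. This became 23 with no filter, 5 to 11 without 1 Control library, 1993 without A2ko, 67 without C9ko and 4361 with the average of the knockout contrasts, and the last and the fit without A2ko each called 7 AP-1 genes. There ATF3 was 0.31 without A2ko and BATF3 -0.065 without A8ko, both with the opposite sign. The share of higher genes among calls went from 49.4% to 27.8% with scaling by the median of ratios, and in A2ko from 69.9% to 54.4%. In A2ko the 867 counted genes became 1813 with a pseudocount of 0.1, 380 with a mean of at least 5 TPM and 4003 called by limma with a pooled spread. The AP-1 genes among them became 2 with scaling (FOSL1 added) and 4 with the pooled spread. In A8ko 809 became 1689, 412 and 3136, and the AP-1 genes 6 with the pooled spread. With no filter A8ko minus A2ko gave 6430 genes against 4150, and C9ko minus A8ko gave 919 to 1318 without 1 library against 1643. JUND in A8ko minus A2ko turned to 0.057 with scaling. In C9ko minus A8ko, with scaling and without mitochondrial genes, ATF3 was -0.016 and -0.0085 and MAFF -0.022 and -0.014. Over the libraries left out ATF3 ranged from -0.083 to 0.12 and MAFF from -0.073 to 0.099. The cause of these shifts was not tested. TPM carries no depth, so counting error is unknown.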
